A study of Homo sapiens with 6 samples.

Results

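Counts were examined for 9 genes of the 11q13 segment of chromosome 11, CCND1, FGF19, FGF4, FGF3, ANO1, FADD, PPFIA1, CTTN and SHANK2, out of 38167 genes in the table. They were taken by name, all 9 were found, and all 9 passed the filter on low counts. The libraries came from RNA of small extracellular vesicles shed by spheroids of Cal27, an established tongue squamous carcinoma line. The spheroids were kept to day 14 with Matrigel, a basement membrane extract, at 3 mg/mL (soft, 3 libraries) or 12 mg/mL (stiff, 3 libraries), and the labels name no other treatment and no genetic change in either group. Vesicles were taken from the culture medium by dielectrophoresis, each library is called a biological replicate, and all come from 1 cell line. The protocols name a kit for total RNA and no step that removes DNA.

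The 11q13 segment is gained in many oral and other squamous carcinomas, and CCND1 is the gene most often named as its driver. Cyclin D1, its product, binds the kinases CDK4 and CDK6, which phosphorylate the retinoblastoma protein and let the cell enter S phase. Neighbouring genes are gained along with it, whether or not the cell transcribes them, and so counts per kb of exon over many genes can serve as a gauge of gene copies when reads come evenly from DNA. The table does not separate reads of transcripts from reads of DNA, and gene copies were not measured here. Counts per kb are therefore described below as a density, and RNA and DNA cannot be told apart as its source.

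A read in these libraries spans 61 bases. Such a stretch, beginning at the start codon, is shown for CCND1 and for the growth factor genes FGF4 and FGF3. It shows what a single counted read can hold. GC content is given with it, since density rose with GC content across the genome. The letters are GRCh38 sequence from GENCODE 29 transcripts, 5′ to 3′ on the strand of the gene, and capitals mark CG pairs.
CCND1: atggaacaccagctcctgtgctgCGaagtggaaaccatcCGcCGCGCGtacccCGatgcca
FGF4: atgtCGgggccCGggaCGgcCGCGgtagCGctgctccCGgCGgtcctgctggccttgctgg
FGF3: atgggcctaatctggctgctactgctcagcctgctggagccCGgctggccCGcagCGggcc
They lie on chromosome 11 at 69641314 to 69641374 (plus strand), 69775024 to 69775084 and 69818873 to 69818933 (minus strand). The GC share of these stretches was 62.3%, 77.0% and 70.5%. Over all exons of CCND1, FGF4 and FGF3 it was lower, at 52.4%, 50.9% and 65.9%. The stretches thus do not stand for whole exons, and the share over all exons was used for GC matching below. Words of 61 bases from FGF19, FGF4, FGF3 and SHANK2 were found in 0 transcripts of other genes in GENCODE 29. CCND1 shared 7.88% of its words with LTO1 on the opposite strand, ANO1 8.42% with ANO1-AS1, and PPFIA1 3.66% with antisense and other genes, while FADD shared 50.1% with the antisense gene AP000879.1. Neither AP000879.1 nor ANO1-AS1 was among the genes counted under that name. Whether the counting used strand was not given in the sources used here. Reads of FADD and of its antisense gene therefore cannot be told apart within the counts of FADD.

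Library totals were 2445498 to 2545385 counts in soft and 2697502 to 2977837 in stiff, and 97.5% to 97.9% of all genes had a count in each library. Ribosomal RNA genes took 2.97% to 8.87% of counts in soft and 20.02% to 22.9% in stiff libraries, and mitochondrially encoded genes 1.48% to 1.81% and 0.162% to 0.201%. Replicates of a group differed beyond sampling noise, and soft replicate 3 stood apart. Its pairs with the other soft libraries had a chi-square per degree of freedom of 2.86 and 3.86, against 1.53 to 1.70 for all other pairs, and its ribosomal share of 8.87% compared with 2.97% and 4.20%. Without it 0 of 9 members passed between the groups, and CTTN, near 0 with it, had a log2 fold change of −0.11. The 10 squamous epithelial markers, KRT5, KRT14 and TP63 among them, summed to 273 to 286 CPM (counts scaled to a common library size by TMM) in soft and 282 to 317 CPM in stiff libraries. Of these 10, 5 had a fold change above 0, and 1 passed, where 0.286% of all genes tested were called higher in stiff. It was KRT14, a keratin of basal cells, at 20.6 ± 3.80 and 33.4 ± 6.17 CPM (SD, n = 3 each; edgeR adjusted p = 0.0281), which lost that call in 7 of 14 alternatives (adjusted p from 0.0130 to 0.347). The 6 fibroblast markers summed to 240 to 258 and 250 to 265 CPM, the 5 leukocyte markers to 89.5 to 102 and 81.4 to 96.6, the 3 endothelial markers to 148 to 183 and 148 to 162, the 3 erythroid markers to 22.5 to 35.1 and 32.1 to 36.4, and the 2 liver markers to 16.97 to 23.1 and 19.1 to 22.6. The lists differ in size, so their sums do not rank the cell types. In these lists 0 markers were at 0 in any library, where 97.5% to 97.9% of all genes had a count in each library. Markers of cells that the labels do not name thus carried counts, as nearly all genes did. Whether such cells were present, and their part in the results, was not tested.

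CCND1 was counted 191, 213 and 165 times in soft replicates 1 to 3 and 178, 217 and 209 times in stiff replicates 1 to 3. In CPM this was 69.8 ± 7.47 in soft and 78.0 ± 4.32 in stiff (SD, n = 3 each). The groups overlapped, with soft replicate 3 the lowest library and stiff replicate 2 the highest. CCND1 spans 69641087 to 69654474 on chromosome 11 (GRCh38, plus strand), with 4.83 kb of exon in GENCODE 29. The log2 fold change of stiff over soft was 0.16 ± 0.11 (SE; edgeR adjusted p = 0.671), with a 95% interval of −0.05 to 0.37.

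The 3 fibroblast growth factor genes lie next to it on the minus strand. FGF3 and FGF4 encode growth factors of the embryo that are little transcribed in most adult tissues, and FGF19 encodes the hormone by which the ileum restrains bile acid synthesis in the liver. All 3 were counted in every library. FGF4 (69771016 to 69775403) had 137, 104 and 126 counts in soft and 128, 150 and 141 in stiff, or 45.1 ± 6.62 and 54.2 ± 1.902 CPM (SD, n = 3 each). Every stiff library lay above every soft library in CPM. Its log2 fold change was 0.26 ± 0.13 (95% interval 0.01 to 0.52), which did not pass over all genes (edgeR adjusted p = 0.492). FGF3 (69809969 to 69819024) had 115, 98 and 106 counts in soft and 114, 112 and 117 in stiff. The groups of FGF3 overlapped in CPM, at 39.2 ± 3.41 and 44.5 ± 2.42 (SD, n = 3 each; log2 fold change 0.18 ± 0.14, edgeR adjusted p = 0.732). FGF19 (69698232 to 69704642) had 83, 81 and 66 counts in soft and 93, 78 and 94 in stiff. Stiff replicate 2 of FGF19 was at 29.3 CPM, level with soft replicate 2 at 29.3, and the log2 fold change was 0.28 ± 0.16 (95% interval −0.03 to 0.59, edgeR adjusted p = 0.592).

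ANO1 encodes a calcium-activated chloride channel and is also known as a gained gene in head and neck carcinoma. ANO1 (70078302 to 70189528, plus strand) had 287, 261 and 279 counts in soft and 268, 313 and 310 in stiff. In CPM these were 101.7 ± 6.18 and 115.2 ± 4.33 (SD, n = 3 each), and the groups did not overlap. The log2 fold change was 0.18 ± 0.09 (95% interval 0.00 to 0.36) and did not pass over all genes (edgeR adjusted p = 0.509). FADD, the adaptor that joins death receptors to caspase-8, lies just beyond it (70203163 to 70207390, plus strand). FADD had 82, 92 and 82 counts in soft and 80, 88 and 92 in stiff, and the groups overlapped at 31.4 ± 1.68 and 33.6 ± 1.17 CPM (log2 fold change 0.10 ± 0.15, edgeR adjusted p = 0.904).

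PPFIA1 and CTTN act at the cell edge. PPFIA1 encodes liprin-alpha-1, a scaffold at focal adhesions, and CTTN encodes cortactin, which stabilises branched actin in invadopodia. PPFIA1 (70270700 to 70385312, plus strand) had 162, 172 and 145 counts in soft and 124, 126 and 131 in stiff. It was the member with the lowest fold change. Its CPM was 58.8 ± 3.85 in soft and 49.4 ± 1.88 in stiff (SD, n = 3 each), and every stiff library lay below every soft library. The log2 fold change was −0.25 ± 0.12 (95% interval −0.50 to −0.01), which did not pass over all genes (edgeR adjusted p = 0.492). CTTN (70398404 to 70436584, plus strand) had 134, 137 and 99 counts in soft and 104, 126 and 122 in stiff, with soft replicate 3 the lowest. The CTTN groups overlapped at 45.4 ± 6.97 and 45.5 ± 2.399 CPM, with a 95% interval of −0.26 to 0.27 on the log2 scale (edgeR adjusted p = 0.997).

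SHANK2 encodes a scaffold of the postsynaptic density and closes the segment (70467856 to 71252577, minus strand). SHANK2 had the most counts of the members, 483, 491 and 480 in soft and 395, 490 and 496 in stiff. In CPM stiff replicate 1 was the lowest library, at 162.4, and the other stiff libraries, at 183.9 and 188.6, lay above the soft libraries, at 177.2 to 181.0. The means were 178.7 ± 2.03 and 178.3 ± 13.97 CPM (SD, n = 3 each), and the 95% interval of the log2 fold change was −0.15 to 0.15 (edgeR adjusted p = 0.998).

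**Figure D1:**
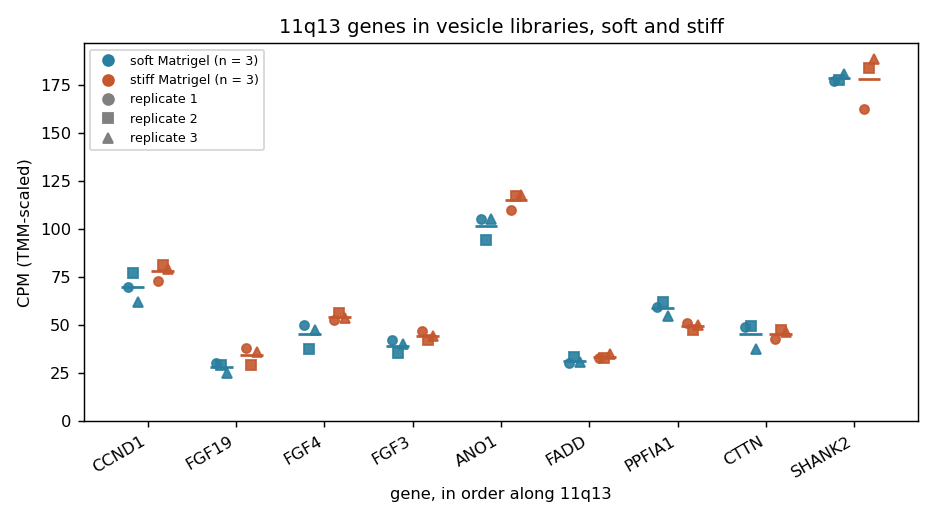
TMM-scaled CPM of the 9 genes (y axis) in the 3 soft and 3 stiff libraries, in order along the segment (x axis); points are libraries and bars are group means. SHANK2 stands highest, near 178 CPM in both groups, and the groups do not overlap for FGF4, ANO1 and PPFIA1.

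Across the 9 genes, 0 passed an adjusted p of 0.05 in the edgeR fit, against 0.451% of the 31074 genes tested. An unadjusted p under 0.05 was seen for 3 (FGF4, ANO1 and PPFIA1), against 9.51% of all genes, and DESeq2 called 0 of 9 without its filter on mean count and 0 of the 6 to which it gave an adjusted p with that filter. The same 3 genes had groups that did not overlap in CPM, against 14.1% of all genes. The fold change was above 0 for 7 of 9 members and for 49.1% of all genes, and the members' median was 0.16 on the log2 scale against −0.00 for all genes. With scaling by library totals alone the median of all genes moved to −0.27, and 8 of 9 members lay above that median, as in the TMM fit. PPFIA1 and SHANK2 passed downwards there, with log2 fold changes of −0.52 and −0.27 (edgeR adjusted p = 0.00297 and 0.0182). Relative to the median of all genes they stood at −0.25 and 0.00 in that fit, and at −0.25 and 0.00 with TMM. CTTN stood at 0.01 in both fits, so CTTN and SHANK2 were level with the median though counted as above it. In fits without 1 library, 6 to 8 members lay above the median. When ribosomal RNA and mitochondrial genes, whose shares differed between the groups, were left out before TMM scaling, 0 of 9 passed. Spread over the 6 libraries was close to what counting gives for several members: the coefficient of variation of CPM was 9.33% for FGF3 and 5.003% for SHANK2, where counting alone would give 9.52% and 4.60%, against 13.3% and 8.74% for FGF4.

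**Figure D2:**
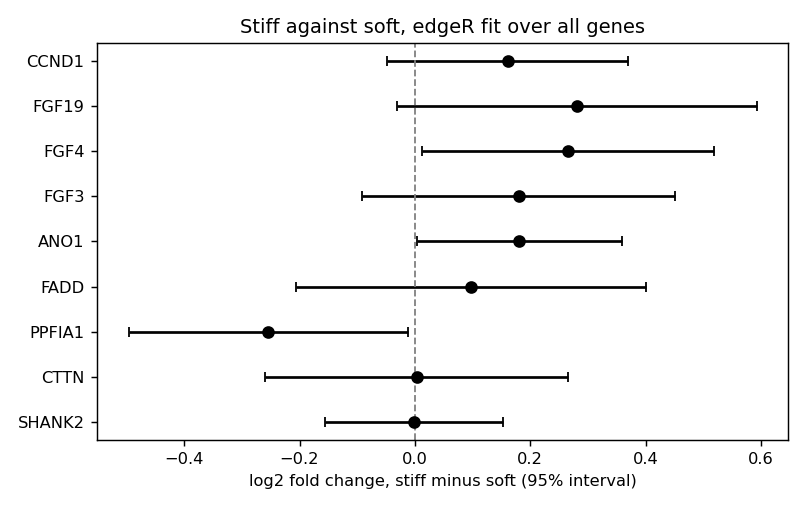
Log2 fold change of stiff over soft for each gene (x axis) with its 95% interval from the edgeR fit over all genes, 3 libraries per group. The unadjusted intervals of FGF4, ANO1 and PPFIA1 leave out 0, PPFIA1 on the side lower in stiff, and those of the other 6 genes include it.

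The partner genes of these proteins were taken from lists of their pathways. In the cyclin D and RB axis 0 of 22 genes passed in either direction, with FBXO31, a ubiquitin ligase subunit, at 56.2 and 66.2 CPM (edgeR adjusted p = 0.497) and CDK6 at 62.9 and 58.1 CPM (adjusted p = 0.815). FGF ligands encoded elsewhere gave 0 of 19, with FGF14 at 50.5 and 51.5 CPM and FGF12 at 47.2 and 53.5 CPM. Among 9 FGF receptors and coreceptors 1 was higher and 0 lower, where 0.286% of all genes tested were called higher and 0.164% lower. The gene was FGFR3, a receptor tyrosine kinase, which rose from 53.9 ± 4.87 to 74.1 ± 10.97 CPM (SD, n = 3 each; log2 fold change 0.46 ± 0.12, edgeR adjusted p = 0.0247). FGFR3 lost that call in 9 of 15 alternatives, 1 of them library totals alone, where it stood 0.47 above the median of all genes on the log2 scale, as it did with TMM. The edgeR, DESeq2 or limma adjusted p ranged from 0.00674 to 0.367. FGFRL1, a receptor-like protein without a kinase, stood at 63.7 and 69.5 CPM (adjusted p = 0.778).

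In the remaining lists 1 gene passed, where 0.451% of all genes tested passed in either direction. Among 10 SHANK relatives and partners SHANK3 rose from 115.6 ± 9.60 to 146.8 ± 6.02 CPM (log2 fold change 0.34 ± 0.09, edgeR adjusted p = 0.0241), and SHANK1 stood at 126.4 and 151.8 CPM (adjusted p = 0.158). SHANK3 lost its call in 9 of 15 alternatives, 1 of them library totals alone, where it stood 0.35 above the median of all genes on the log2 scale, as it did with TMM. The adjusted p by edgeR, DESeq2 or limma ranged from 0.00937 to 0.557. The difference between SHANK3 and SHANK2 in response to stiffness was not tested. Anoctamins gave 0 of 9 (ANO9 89.7 and 108.1 CPM, ANO8 88.2 and 100.2 CPM), the death receptor complex of FADD 0 of 10 (CFLAR 112.5 and 108.4 CPM, TRADD 41.9 and 46.3 CPM), liprins and their phosphatases 0 of 8 (PTPRS 133.1 and 158.4 CPM, PTPRF 108.6 and 108.7 CPM), and cortactin and branched actin genes 0 of 13 (SH3PXD2A 105.6 and 130.6 CPM, SH3PXD2B 63.7 and 63.6 CPM). Median log2 fold changes of these lists lay between −0.04 for the cyclin D and RB axis and 0.15 for the liprins. The genes whose log2 CPM followed CCND1 most closely over the 6 libraries, of 18736 protein-coding genes, were SORCS2, SBK3 and ZNF274, with Pearson r of 0.99, 0.99 and 0.99. With so few libraries and so many genes this is a description only.

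Density was counted next. Each gene's counts per kb of exon were divided, library by library, by the median of chromosome 11 protein-coding genes over 5 Mb from CCND1 whose exons had at least 1 kb and a GC share within 5 percentage points. Composition matters here. Over autosomal genes off chromosome 11 the median was 9.06 to 10.4 counts per kb at 35% to 40% GC and 44.5 to 52.0 at 65% to 70%, over the 6 libraries. The median of the 9 members was 2.14 ± 0.13 times its reference (SD over 6 libraries), with 2.04 ± 0.06 in soft and 2.23 ± 0.11 in stiff (n = 3 each). Set against autosomal genes of like GC outside the 11q13 window instead, the members' median was 1.88 ± 0.07.

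CCND1 had 39.5, 44.1 and 34.2 counts per kb in soft and 36.9, 44.9 and 43.3 in stiff, 2.41 to 3.14 times its 285 reference genes. Among 5322 autosomal genes of like GC off chromosome 11 it stood at percentiles of 91.2 to 96.3. ANO1 and FGF4 were the densest members, at 3.04 ± 0.26 and 2.91 ± 0.40 times their references (SD over 6 libraries). FGF3, short and GC-rich at 65.9%, had 80.7 to 96.4 counts per kb, the most of the members, but 2.35 ± 0.20 times its reference. FADD was at 2.17 ± 0.11, SHANK2 at 1.67 ± 0.10 and FGF19 at 1.57 ± 0.23. CTTN and PPFIA1 were lowest, at 1.18 ± 0.12 and 0.97 ± 0.11. In this order ANO1, FGF4 and CCND1 (2.80 ± 0.28) differed by less than 1 SD, as did SHANK2 and FGF19, while FADD and SHANK2 differed by more. With the autosomal reference FGF3 and FGF4, which most adult tissues hardly transcribe, stood at 2.45 ± 0.21 and 2.45 ± 0.32. CCND1 stood at 2.27 ± 0.21 on that scale, and FGF19, the third growth factor gene, lower at 1.37 ± 0.20. Whether Cal27 transcribes these genes was not tested.

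The order of the members depended on which exons were counted as their length. All GENCODE exons together were 2.07, 2.05 and 2.04 times as long as the exons of RefSeq-matched transcripts for PPFIA1, CTTN and SHANK2, and 1.00 to 1.19 times as long for the other 6. With RefSeq-matched exons PPFIA1, CTTN and SHANK2 moved up to 1.49 ± 0.15, 1.57 ± 0.15 and 2.26 ± 0.17, while CCND1, FGF4 and FGF19 moved to 2.05 ± 0.20, 2.00 ± 0.28 and 1.08 ± 0.17. The members' median was then 1.81 ± 0.11. Only the lengths were changed, and like GC was still judged on all GENCODE exons. Over autosomal genes off chromosome 11, the scale used from here on except where stated, the densest member exceeded the least dense 2.75-fold with all exons and 2.11-fold with RefSeq-matched exons. With RefSeq-matched exons ANO1, at 2.08 ± 0.15, was the highest member and FGF19, at 0.99 ± 0.15, the lowest. With all exons FGF3, FGF4 and ANO1, at 2.45 ± 0.21, 2.43 ± 0.31 and 2.42 ± 0.18, were level at the top and PPFIA1, at 0.89 ± 0.09, was the lowest.

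**Figure D3:**
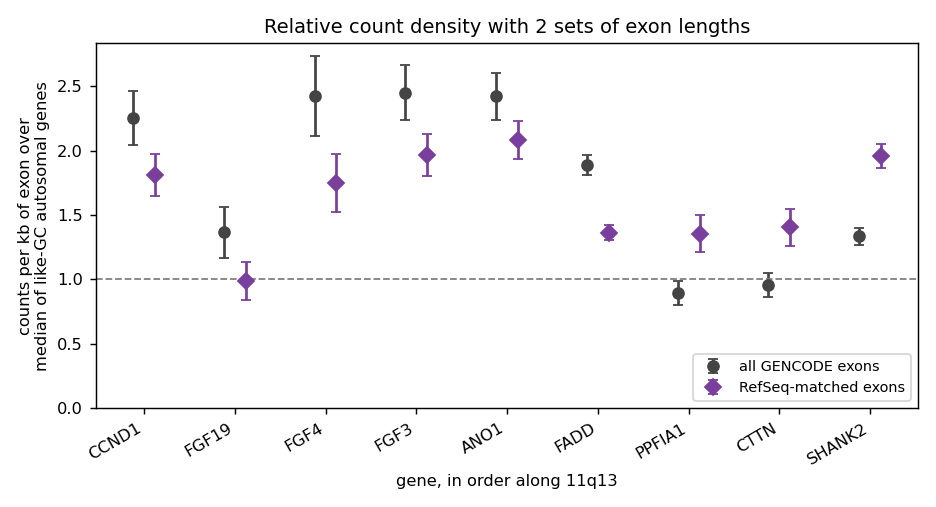
Counts per kb of exon of each gene divided by the median of autosomal genes of like GC off chromosome 11 (y axis; dashed line at 1), mean and SD over 6 libraries, with lengths from all GENCODE exons or from RefSeq-matched transcripts. PPFIA1 and CTTN are near or below 1 with all exons and at 1.36 and 1.41 with RefSeq-matched ones, and FGF19 falls to 0.99.

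Neighbouring genes showed how wide the dense stretch was. Within 5 Mb of the start of CCND1, and with at least 1 kb of exon, 140 protein-coding genes lay before it, 10 between CCND1 and SHANK2 (the 9 members and LTO1) and 47 after SHANK2. Median density on the chromosome 11 scale was 1.598 ± 0.05 before, 1.94 ± 0.10 in the segment and 1.35 ± 0.05 after it (SD over 6 libraries). The segment exceeded the genes after it in every library, 1.28-fold to 1.41-fold in soft and 1.51-fold to 1.598-fold in stiff, and with RefSeq-matched exons 1.256-fold to 1.32-fold and 1.27-fold to 1.42-fold. Against the genes before CCND1 the ratio was 1.12 to 1.32, with RefSeq-matched exons it was 0.97 to 1.09, and without GC matching the medians were 2.79 ± 0.13 before CCND1 and 2.54 ± 0.30 in the segment. A higher density in the segment than on its centromeric side thus depended on the exon set and on GC matching.

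The gene directly before the segment, MYEOV, a gene often gained along with CCND1, was at 1.22 ± 0.11 on the same scale. LTO1, whose product helps iron-sulphur proteins mature, lies inside the segment, overlaps CCND1 on the opposite strand by 497 bases and was its least dense gene with all exons, at 0.57 ± 0.09 (1.19 with RefSeq-matched exons, above FGF19 at 1.08). DHCR7, the last enzyme of cholesterol synthesis and the first gene after SHANK2, was at 1.53 ± 0.24. In the flanks the extremes were TMEM262 at 0.34 ± 0.07 and CABP4 at 3.26 ± 0.17 before CCND1, and NADSYN1 at 0.47 ± 0.05 and P2RY2 at 3.69 ± 0.27 after SHANK2. Single genes on either side were therefore as dense as ANO1 or denser. TMEM262 and NADSYN1 stood at 1.91 and 1.80 with RefSeq-matched exons.

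**Figure D4:**
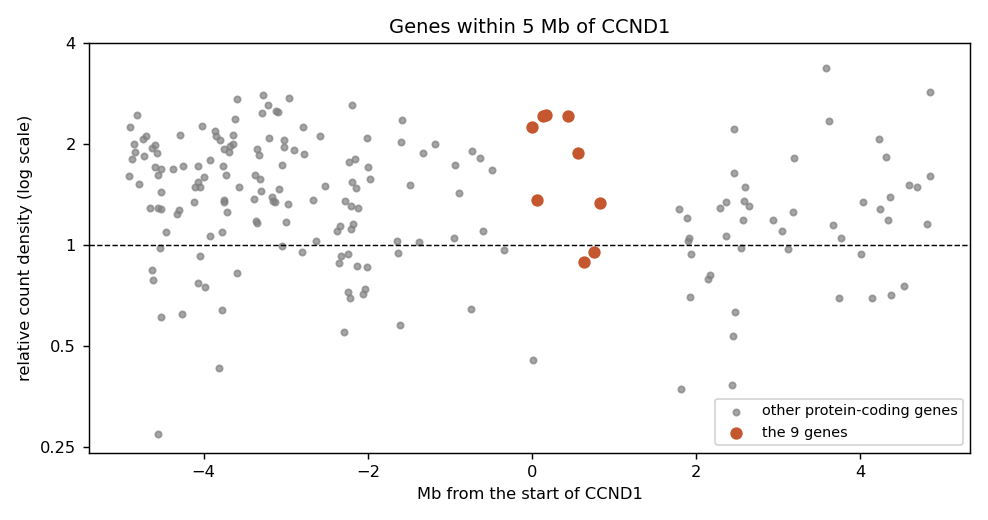
Density of protein-coding genes with at least 1 kb of exon, mean of 6 libraries over the median of autosomal genes of like GC (y axis, log scale), by distance from the start of CCND1 (x axis, Mb). The 9 genes span 0.89 to 2.45, within the range of genes on the centromeric side.

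Along the whole of chromosome 11, in windows of 5 Mb set against autosomal genes elsewhere, the members sat in a broad raised stretch, which was not the only one. On the short arm the 4 windows from 50 to 30 Mb before CCND1 had medians of 1.15, 1.46, 1.30 and 2.71 with all exons (11 to 29 genes each). With RefSeq-matched exons these were 1.02, 1.32, 1.43 and 2.74. The window from 30 to 25 Mb before CCND1 was at 0.91 with all exons and at 1.28 with RefSeq-matched ones. Around the members, medians were 0.93 ± 0.03 in the window ending 5 Mb before CCND1 (127 genes) and 1.505 ± 0.05 in the next (140 genes). They stayed at 1.15 to 1.55 in every window up to 35 Mb after CCND1 (8 to 57 genes each). They then fell to 0.75 ± 0.07 and to 0.50 to 0.57 between 40 and 60 Mb after CCND1 (43 to 66 genes each). In every library each window from 40 to 60 Mb was below each window from 5 Mb before to 35 Mb after. These values are for all exons. With RefSeq-matched exons the window ending 5 Mb before CCND1 was at 1.07 and the next at 1.64. Windows up to 35 Mb after CCND1 were then at 1.11 to 1.69, and those from 40 to 60 Mb at 0.58 to 0.69. The limits of the raised stretch on its centromeric side and on the short arm thus depended on the exon set. The 321 other genes of the raised stretch had a median of 1.40 ± 0.03 and the members 1.87 ± 0.07. With RefSeq-matched exons these were 1.43 ± 0.03 and 1.72 ± 0.15. Of those 321 genes 91.3% were less dense than CCND1, 93.5% less dense than ANO1 and 14.0% less dense than PPFIA1, and with RefSeq-matched exons 71.8%, 82.1% and 44.5% of 319. For FGF19, FGF4, FGF3, FADD, CTTN and SHANK2 the shares with all exons were 49.8%, 93.8%, 94.1%, 78.2%, 18.1% and 45.8%. With RefSeq-matched exons these were 13.2%, 69.0%, 78.7%, 44.8%, 48.3% and 78.4%. With those exons FGF19, FADD, PPFIA1 and CTTN were thus less dense than most genes of the stretch. The raised stretch was picked out after its values were seen, and its difference from the members was not tested, since the genes of 1 cell line are not replicates.

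**Figure D5:**
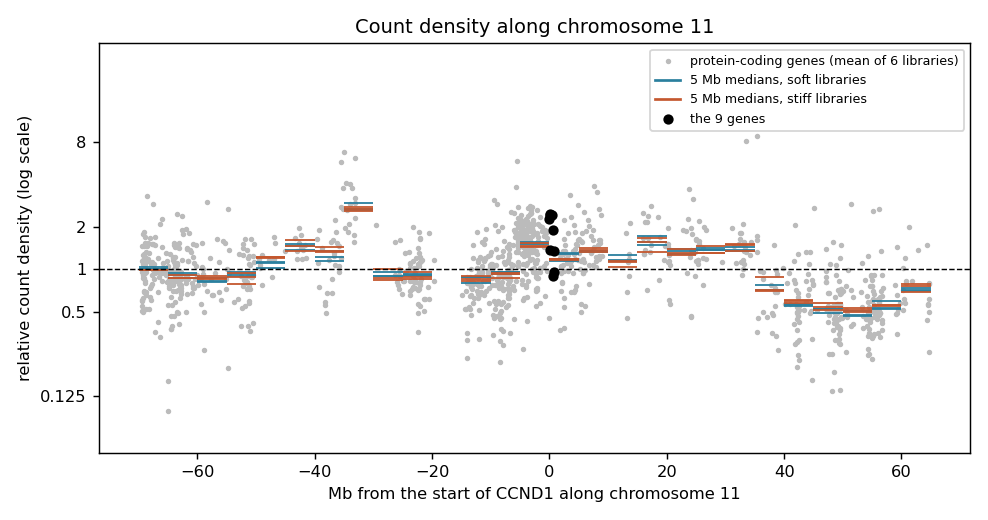
Density of chromosome 11 protein-coding genes over autosomal genes of like GC (y axis, log scale) by distance from CCND1 (x axis, Mb); grey points are genes, lines are medians of 5 Mb windows with at least 5 genes in each library. With lengths from all GENCODE exons, the 9 genes (black) lie in a stretch raised from 5 Mb before to 35 Mb after CCND1. Medians beyond 40 Mb fall to between 0.46 and 0.79.

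Other loci often altered in squamous carcinoma gave lower medians than the members when each gene was set against its own chromosome. These references were not built alike. That of chromosome 11 left out all genes within 5 Mb of CCND1, and those of the other loci only the listed locus genes. It also drew on the genes over 40 Mb after CCND1, whose median was 0.55 on the autosomal scale. The genes at 7p11, with EGFR among them, had a median of 1.45 ± 0.06 (6 genes, SD over 6 libraries), those at 3q26 to 3q28, with PIK3CA and SOX2, 1.35 ± 0.09 (12 genes), those at 9p21, with CDKN2A, 0.89 ± 0.08 (7 genes with at least 1 kb of exon) and those at 18q21, with SMAD4, 0.82 ± 0.11 (8 genes). Against autosomal genes the order was 1.88 ± 0.07 for the 11q13 members, 1.81 ± 0.06 for 7p11, 1.48 ± 0.08 for 3q26 to 3q28, 1.25 ± 0.12 for 9p21 and 0.58 ± 0.08 for 18q21. The 11q13 members and 7p11 differed by about the spread between libraries on that scale. By gene, EGFR, the receptor of epidermal growth factor, was at 1.82 ± 0.14 and VSTM2A of the same locus at 5.25 ± 0.23. At 3q26 to 3q28 LPP, a focal adhesion protein, was at 1.496 ± 0.10 and BCL6, a transcriptional repressor, at 2.78 ± 0.32. At 9p21 CDKN2A, whose product p16 inhibits the kinases that cyclin D1 activates, was at 1.31 ± 0.12 and ELAVL2 at 1.69 ± 0.13. At 18q21 MAPK4 was at 1.896 ± 0.18 and DCC, a netrin receptor, at 0.55 ± 0.10. Both VSTM2A and BCL6 were denser than every 11q13 member on that scale, so single genes outside 11q13 reached the density of its densest genes.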

How the data were processed

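The authors deposited raw counts of reads per gene symbol in 1 table of 6 vesicle RNA libraries, with no normalization. Trim Galore 0.4.2, cutadapt 1.9.1, FastQC 0.11.7, STAR 2.6.1e, featureCounts 1.6.2, DESeq2 1.26.0 and hg38 are named, without roles, per the submitters' processing notes; the annotation, the strand setting and the handling of multimapping reads are not given in the sources used here. Table columns carried the labels' descriptions, in which 2 stiff libraries share a number, and the titles' replicate numbers were used. The 2 groups were compared with TMM scaling, filterByExpr and the robust quasi-likelihood F test (two-sided) of edgeR 4.0.16 under R 4.3.3, which tested 31074 genes, with Benjamini-Hochberg adjustment over all of them and a threshold of 0.05; standard errors and unadjusted 95% intervals came from the F statistic. DESeq2 1.42.0 and limma-voom (limma 3.58.1) were alternatives. The procedure was tested on simulated data, where it recovered 45% of 1.5-fold and 87% of 2-fold changes, and 4.35% of calls were false. The simulation gave every gene the same dispersion and all libraries the same composition apart from the changes. Only genes above a low mean count were changed. The rates may therefore not hold for these libraries, where soft replicate 3 stood apart and ribosomal shares differed between groups. Smaller changes, the size of those of the members, were not simulated. GENCODE 29 (GRCh38) gave exon lengths and GC for 27199 symbols (71.3%). More of the symbols, 35508 of 38167, were in a RefSeq gene table. Lengths from all GENCODE exons may therefore not be those over which reads were counted. Density is counts per kb of exon over the median of like-GC genes. The GC of all GENCODE exons was used with every set of lengths, and no test was run over members. Members and lists were chosen with earlier results of these data known. All members were named, and of other lists the genes called or else the 2 with the most CPM (marker lists are given as sums); along the segment its neighbours and the extremes of each part. RefSeq-matched lengths, the chromosome windows and the set without PPFIA1, CTTN and SHANK2 were added after seeing the data. The labels do not say that replicates were separate cultures, so p-values and intervals cover the spread between these libraries only, which may be technical.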

Additional observations from a re-analysis of the deposited data

How the results depend on the processing

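Of the 9 members 0 passed between stiff and soft in every alternative except library totals alone, where 2 did (PPFIA1 and SHANK2). DESeq2 with its filter gave 3 members no adjusted p (FGF19, FGF3 and FADD). Over all genes 140 passed, against 81 with DESeq2, 46 with DESeq2 without its filter, 4194 with library totals alone, 91 with limma-voom, 67 with a GC-content offset and 60 to 136 without 1 replicate (60 without stiff replicate 2, 75 without stiff replicate 3, 77 without soft replicate 2 and 85 without stiff replicate 1). The library totals fit gave 31 higher and 4163 lower, against 89 and 51, and the GC-content offset 34 and 33. With the replicate number as a block 173 genes and 0 members passed. Same-numbered libraries did not deviate together (correlations −0.00363, 0.00241 and 0.00346), so the numbers are not taken to pair the libraries. The members' median density of 2.14 was 1.88 with an autosomal reference, 2.73 without GC matching, 1.95 with the longest transcript, 1.81 with RefSeq-matched exons, 2.53 without PPFIA1, CTTN and SHANK2, and 2.09 to 2.16 without 1 library. The ratio of the segment to the genes after it, 1.44, was 1.61 without GC matching and 1.41 to 1.47 without 1 library. The ratio of the members to all genes of the 4 comparison loci, 1.97, was 1.41 with an autosomal reference, 1.76 with a GC window of 2 percentage points, 2.90 without GC matching and 1.93 to 2.02 without 1 library. The causes were not tested. Members had 66 to 496 counts a library.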

Other observations

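The densest 5 Mb window of chromosome 11 was not the one that holds the 11q13 segment. The window from 35 to 30 Mb before CCND1, on the short arm, had a median of 2.71 ± 0.13 over 14 genes (SD over 6 libraries), and 2.58 to 2.95 in single libraries. On the same autosomal scale the window from CCND1 to 5 Mb after it, which holds the segment, had 1.21 ± 0.07 over 57 genes. The 11q13 members alone had 1.87 ± 0.07. The short-arm window holds CD44, the hyaluronan receptor, at 2.61 ± 0.27, and TRAF6, an adaptor of innate immune signalling, at 6.18 ± 0.37. It also holds PDHX, a subunit of the pyruvate dehydrogenase complex, at 4.10 ± 0.58, and TRIM44 at 4.05 ± 0.32. RAG1 and RAG2, the recombinase genes of developing lymphocytes, were at 2.93 ± 0.17 and 2.30 ± 0.29. Lengths from RefSeq-matched exons gave the short-arm window a median of 2.74 ± 0.13. The genes of the window were named after their values were seen, and no test was run.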
